A study of Mus musculus with 12 samples.

Results

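Endothelial cells hold on to one another through tight junctions and adherens junctions. The 8 genes described here encode proteins of those contacts in the vessel wall: the claudin Cldn5, the cadherin Cdh5 (VE-cadherin), the scaffold Tjp1 (ZO-1), occludin (Ocln), the adhesion molecule Esam and the junctional adhesion molecules Jam2 (JAM-B), Jam3 (JAM-C) and F11r (JAM-A). They were taken by name from a list of tight and adherens junction genes, chosen with earlier results of these data known. All 8 had a probe set among the 25428 on the array, each probe set being named for an Entrez gene.

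Expression was measured on 12 Affymetrix arrays, 1 for each sample of mouse liver sinusoidal endothelial cells (LSEC), the cells that line the capillaries of the liver. There were 6 Control samples and 6 samples from mice named NICD-OE-HEC, which carried Clec4g-Cre (tg/wt) and a Rosa26-N1ICD-IRES-GFP allele. In these mice the Clec4g regulatory sequence directs Cre to hepatic endothelium, and Cre switches on the intracellular domain of the Notch1 receptor together with a GFP reporter. The sources used here give neither the full genotype of the Control mice nor the age and sex of either group. Each sample pooled the livers of 3 mice, and in both groups the cells were released with collagenase, enriched on a Nycodenz gradient and picked with magnetic beads against CD146, the product of Mcam. The labels call the samples of a group biological replicates. The comparison asks which junction genes differ when Notch signalling is turned on in these cells.

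Notch target genes were higher in NICD-OE-HEC cells: Hey1 rose by 2.70 on the log2 scale, Nrarp by 1.04 and Hes1 by 0.76, while Notch1 itself was not called (0.19). Whether the probes lie inside the part of Notch1 that the transgene encodes was not checked, so the Notch1 value alone cannot test the labels. Mcam, the antigen used for selection, rose by 0.92, and Clec4g fell by 0.81. All 10 general endothelial markers examined and all 10 sinusoidal markers had group means above the array median of 3.67 in both groups. Of the sinusoidal markers 9 fell and 1, Lyve1, rose. Of the general endothelial markers 3 fell, 1 rose and 6 were not called. Arrays of a group correlated at 0.976 to 0.992, and Control 2 and NICD-OE-HEC 4 stood apart from the rest on the second principal component, which held 16.4% of the variance. Of 12 early response genes, a list that includes Fos and Egr1, 10 rose, against 4.89% of all probe sets. Their mean log2 value ran from 6.45 to 7.86 in Control and from 7.73 to 9.46 in NICD-OE-HEC. The part of this response in the junction results was not tested. A change in these bulk values cannot tell fewer cells of a type from less RNA per cell.

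In a tight junction, claudins and occludin span the membrane and close the gap between neighbouring cells, and ZO proteins tie them to actin. In an adherens junction, VE-cadherin binds its like on the next cell and holds catenins on the inside. JAM proteins and ESAM are immunoglobulin-type molecules at the same contacts and also serve leukocytes as they cross the vessel wall. Sinusoidal endothelium is fenestrated and lacks a continuous basement membrane, and Cldn5 is best known from vessels with a tighter barrier, such as those of the brain.

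Of the 8 genes, 1 rose in NICD-OE-HEC cells, 1 fell and 6 were not called. Ocln rose 2.20-fold and Cldn5 fell 2.36-fold, so the RNA values of 2 genes for tight junction membrane proteins changed in opposite directions. Protein was not measured. A call is an adjusted p under 0.05 in limma, with the Benjamini-Hochberg adjustment over all probe sets, and 10.5% of all probe sets were called on this rule (4.89% higher and 5.59% lower). The 2 called genes were also those whose groups of arrays did not overlap, as was so for 6.68% of all probe sets (2.98% higher and 3.70% lower). Both differed by at least 1 on the log2 scale, which with a call held for 2.09% of all probe sets. The median log2 difference was -0.03 over the 8 genes and -0.01 over all probe sets. The counts of 1 higher and 1 lower were the same without Control 2 and NICD-OE-HEC 4.

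**Figure D1:**
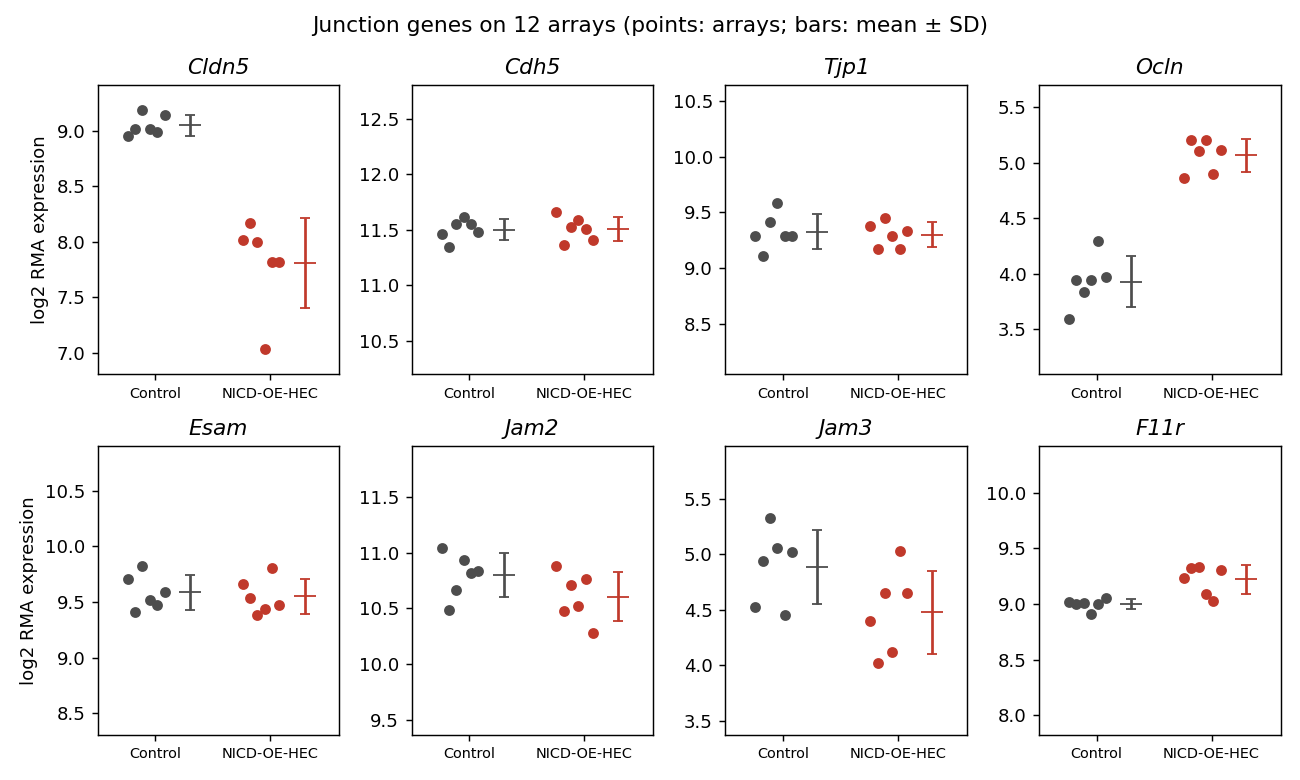
Log2 RMA expression of the 8 junction genes, with a point for each of the 6 Control and 6 NICD-OE-HEC arrays and the mean ± SD beside them; every panel spans the same height in log2 units. Cldn5 lies between 8.95 and 9.19 on Control and between 7.03 and 8.17 on NICD-OE-HEC arrays, Ocln between 3.59 and 4.30 and between 4.86 and 5.21, and the groups overlap in the other 6 panels.

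The stretches of DNA just before the start sites of the 2 called genes are shown because these genes moved under the same transgene and in opposite directions. They are the 250 bases upstream of the start, 5′ to 3′ on the gene's strand, from RefSeq on GRCm38.p6. The table held such windows for Cldn5, Ocln, Tjp1 and F11r and none was matched for Cdh5, Esam, Jam2 and Jam3. Cldn5 lies at chr16:18776597-18776846 on the plus strand. Ocln has 2 starts in the table, and the window of the outer start lies at chr13:100552719-100552968 on the minus strand. Capitals mark the 1 match to a searched motif.
Cldn5: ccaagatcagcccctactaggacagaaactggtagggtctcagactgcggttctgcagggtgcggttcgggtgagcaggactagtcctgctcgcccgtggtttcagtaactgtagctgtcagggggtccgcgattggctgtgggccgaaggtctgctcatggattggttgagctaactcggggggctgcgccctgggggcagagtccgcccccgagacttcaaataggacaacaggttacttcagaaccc
Ocln: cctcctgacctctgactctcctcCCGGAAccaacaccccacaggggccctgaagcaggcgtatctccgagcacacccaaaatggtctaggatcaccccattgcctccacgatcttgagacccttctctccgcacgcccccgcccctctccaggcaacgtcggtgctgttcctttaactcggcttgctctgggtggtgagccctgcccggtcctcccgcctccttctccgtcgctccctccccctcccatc

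The motifs searched, on both strands and with no overlap among their matches here, were TGGGAA (the core bound by RBPJ, the DNA-binding partner of the Notch intracellular domain), CACGTG and CACGCG (sites of HEY and HES repressors), GTAAACA (forkhead factors) and CCGGAA (ETS factors). The Cldn5 window held 0 of the 5 motifs, and the outer Ocln window held CCGGAA once, starting 227 bases before the start. The second Ocln window and those of Tjp1 and F11r held 0. Over 32851 windows of this length in the table, 21.6% held TGGGAA, 6.02% CACGTG, 7.62% CACGCG, 3.17% GTAAACA and 12% CCGGAA. GC content was 59.6% in the Cldn5 window and 64.0% in that of Ocln, against a median of 52.4% over all windows. A match or its lack describes only these letters in this window.

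Cldn5, the claudin that seals endothelial tight junctions, fell on every NICD-OE-HEC array. Its log2 values on Control arrays 1 to 6 were 8.95, 9.01, 9.19, 9.01, 8.99 and 9.14. On NICD-OE-HEC arrays 1 to 6 they were 8.02, 8.17, 8.0, 7.03, 7.82 and 7.82. The highest NICD-OE-HEC array thus lay below the lowest Control array, and NICD-OE-HEC 4 lay well under the other 5. The mean went from 9.05 ± 0.09 to 7.81 ± 0.40 (SD, n = 6 each), a log2 difference of -1.24 (SE 0.15, 95% interval -1.57 to -0.91, adjusted p = 6.09e-05). An exact permutation test of this gene alone gave p = 0.00216, the smallest that all assignments of 6 of 12 arrays to a group allow. The SD was 4.27 times larger in NICD-OE-HEC than in Control. Without NICD-OE-HEC 4 the difference was -1.09, the smallest over single arrays left out, and Cldn5 kept its call under every alternative run.

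Sinusoidal markers fell on the same arrays, 9 of 10. Their mean log2 value ran from 10.36 to 10.67 on Control arrays, all above the NICD-OE-HEC arrays, of which NICD-OE-HEC 2 was lowest at 9.78. Their part in the Cldn5 result was not tested. The mean of the general endothelial markers ran from 10.36 to 10.54 and from 10.24 to 10.40. With the Cdh5 value of each array subtracted, the Cldn5 difference was -1.25 (adjusted p = 1.04e-04), and with the general endothelial marker mean subtracted it was -1.09 (adjusted p = 9.81e-05). Cldn5 is also made by lymphatic vessels, and of 5 lymphatic markers 2 rose, Prox1 (0.91) and Mmrn1 (1.46), and 1 fell, Flt4 (-0.56).

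Ocln, which encodes occludin, a membrane protein of epithelial and brain endothelial tight junctions, rose on every NICD-OE-HEC array. Control arrays 1 to 6 gave 3.59, 3.95, 3.83, 3.94, 4.30 and 3.97, close to the array median of 3.67. NICD-OE-HEC arrays 1 to 6 gave 4.86, 5.21, 5.10, 5.20, 4.90 and 5.12. All 6 lay above the highest Control array, which was Control 5. The mean went from 3.93 ± 0.23 to 5.07 ± 0.15 (SD, n = 6 each), a log2 difference of 1.13 (SE 0.11, 95% interval 0.89 to 1.38, adjusted p = 6.69e-06, exact permutation p = 0.00216). Control 1 lay below the array median, under which signal and background are not told apart here, so the size of the fold is less sure than its direction. The difference lay between 1.07 and 1.21 over single arrays left out, and the call was kept under every alternative run.

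Bile duct cells (cholangiocytes) and hepatocytes also make occludin. Cholangiocyte markers were higher on the same arrays, while hepatocyte markers rose only in part. All 8 measured cholangiocyte markers rose, and their mean log2 value ran from 4.26 to 4.83 in Control and from 5.25 to 5.73 in NICD-OE-HEC. The cystic fibrosis channel Cftr, a defining marker of these cells, was below the array median in both groups (2.15 and 2.76), and the keratin Krt19 went from 3.55 to 4.39. Of 9 hepatocyte markers 4 rose and 0 fell, with list means from 6.04 to 7.49 and from 6.75 to 8.29, which overlap. The part of either cell type in the Ocln result was not tested.

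Claudins other than Cldn5 gave 3 rises and 0 falls among 22, against 4.89% higher and 5.59% lower over all probe sets. The 3 were Cldn3, Cldn7 and Cldn8. Of the 22, 14 had both group means below the array median, and only 5 had both above it. Cldn3, a sealing claudin of epithelia, rose from 5.22 ± 0.24 to 5.77 ± 0.23 (log2 difference 0.55, adjusted p = 0.0115). Cldn7, a claudin of ducts and tubules, rose by 0.68, with NICD-OE-HEC 2 above the other arrays at 4.86, and Cldn8 by 0.57. The lower means of Cldn7 (3.50) and Cldn8 (2.76) were under the array median, so the sizes of these differences are not exact. None of the 22 was called lower with Cldn5, and the smallest difference among them was -0.12. In the 14 with both means below the array median, a fall might not show.

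**Figure D2:**
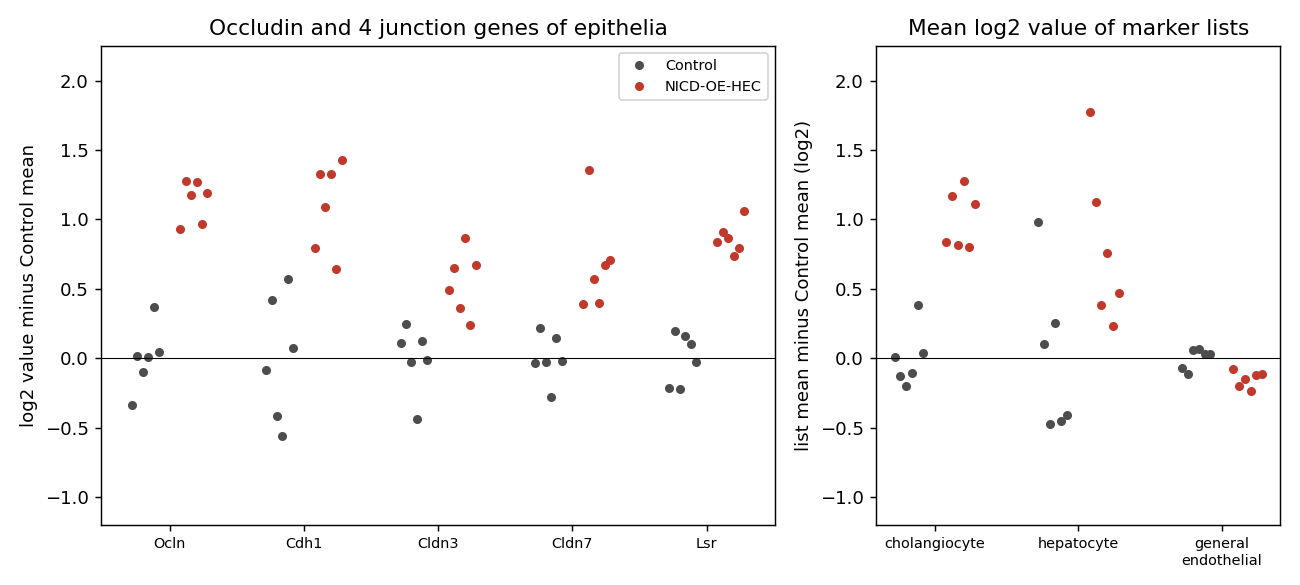
Left, log2 values minus the Control mean for Ocln and 4 junction genes of epithelia, chosen for the plot after their values were seen; right, the same for the mean log2 value of 3 marker lists, with a point for each array. The 6 NICD-OE-HEC arrays lie above all Control arrays for Ocln, Cdh1, Cldn7, Lsr and the cholangiocyte mean. The groups overlap for Cldn3, the hepatocyte mean and the general endothelial mean. Cldn4 (0.28), Cgn (0.26), Marveld2 (0.27) and Marveld3 (-0.05), from the same junction lists, were not called and are not plotted. Cdh1 is also part of the cholangiocyte mean, so the panels are not separate.

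Cdh5, the cadherin that founds the endothelial adherens junction, had nearly the same values in both groups. Control arrays lay from 11.35 to 11.61 with a median of 11.52, and NICD-OE-HEC arrays from 11.36 to 11.66 with a median of 11.52. The groups overlapped, with 1 NICD-OE-HEC array above all Control arrays. The log2 difference was 0.01 (SE 0.08, adjusted p = 0.982), and its 95% interval of -0.17 to 0.18 is the range of change these arrays leave. Its sign turned under 6 of 21 alternatives.

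Other cadherins did change. Of 10 measured, 4 rose and 2 fell, against 4.89% higher and 5.59% lower over all probe sets. Pcdh12, a protocadherin of endothelial junctions also called VE-cadherin-2, went from 9.07 ± 0.10 to 7.92 ± 0.13 (SD, n = 6 each), a fall of 2.21-fold (log2 difference -1.15, SE 0.09, adjusted p = 4.63e-07). Its lowest Control array, at 8.94, lay above its highest NICD-OE-HEC array, at 8.08. Cdh13 (T-cadherin), which is anchored by a lipid and lacks a tail for catenins, fell by 0.92 (adjusted p = 1.34e-04). The epithelial cadherin Cdh1 rose from 5.69 ± 0.45 to 6.79 ± 0.32 (adjusted p = 0.00150), and Cdh6, a cadherin best known from kidney, by 0.78. The protocadherins Pcdh17 (0.71) and Pcdh1 (0.63) make up the rest of the rises and are named after their values were seen. Cdh1 also stands in the cholangiocyte list, so its rise is not separate from that list.

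Genes for the proteins that link cadherins to the cell interior, with the nectins, gave 3 rises and 3 falls among 17. The shares over all probe sets were 4.89% higher and 5.59% lower. Nectin2, an immunoglobulin-type adhesion molecule bound by afadin, rose by 0.71 (SE 0.09, adjusted p = 6.93e-05), and Ctnnal1, a relative of alpha-catenin, by 0.49. Vezt (vezatin), a protein of the cadherin-catenin complex, fell by 0.69 (adjusted p = 0.00386). Jup (plakoglobin), which takes the place of beta-catenin on cadherin tails, fell by 0.51 (adjusted p = 0.0314). That call was lost without Control 1, 5 or 6 or NICD-OE-HEC 3, 4, 5 or 6, and over all 12 single arrays left out the difference ran from -0.58 to -0.44 and the adjusted p reached 0.0771. Ptprb (VE-PTP), the phosphatase that binds VE-cadherin, fell by 0.42 (adjusted p = 0.00583) and is named after its values were seen, as is Ctnnb1 (beta-catenin), which rose by 0.31 (adjusted p = 0.0445). The Ctnnb1 call was lost without any single Control array or without NICD-OE-HEC 1, 2, 3 or 6, the adjusted p reaching 0.0926. Ctnna1 (0.12) and Ctnnd1 (-0.18), the alpha- and p120-catenin genes, were not called.

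Tjp1, the ZO-1 scaffold beneath claudins, occludin and JAM proteins, was not called. Its values ran from 9.11 to 9.59 with a median of 9.29 on Control arrays and from 9.17 to 9.45 with a median of 9.31 on NICD-OE-HEC arrays. All NICD-OE-HEC arrays lay within the Control range. The log2 difference was -0.03 (SE 0.09, 95% interval -0.23 to 0.17, adjusted p = 0.921). Among 25 other scaffolds and MARVEL-type membrane proteins 3 rose and 1 fell, against 4.89% higher and 5.59% lower over all probe sets. Lsr, an organizer of junctions where 3 epithelial cells meet, rose from 3.36 ± 0.18, below the array median, to 4.23 ± 0.11 (log2 difference 0.87, adjusted p = 2.35e-05). Marveld1, of the same membrane protein family as occludin, rose by 0.39, and the polarity scaffold Pard3 by 0.36. Amotl1, a member of the angiomotin family, fell by 0.56 (adjusted p = 3.55e-04).

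**Figure D3:**
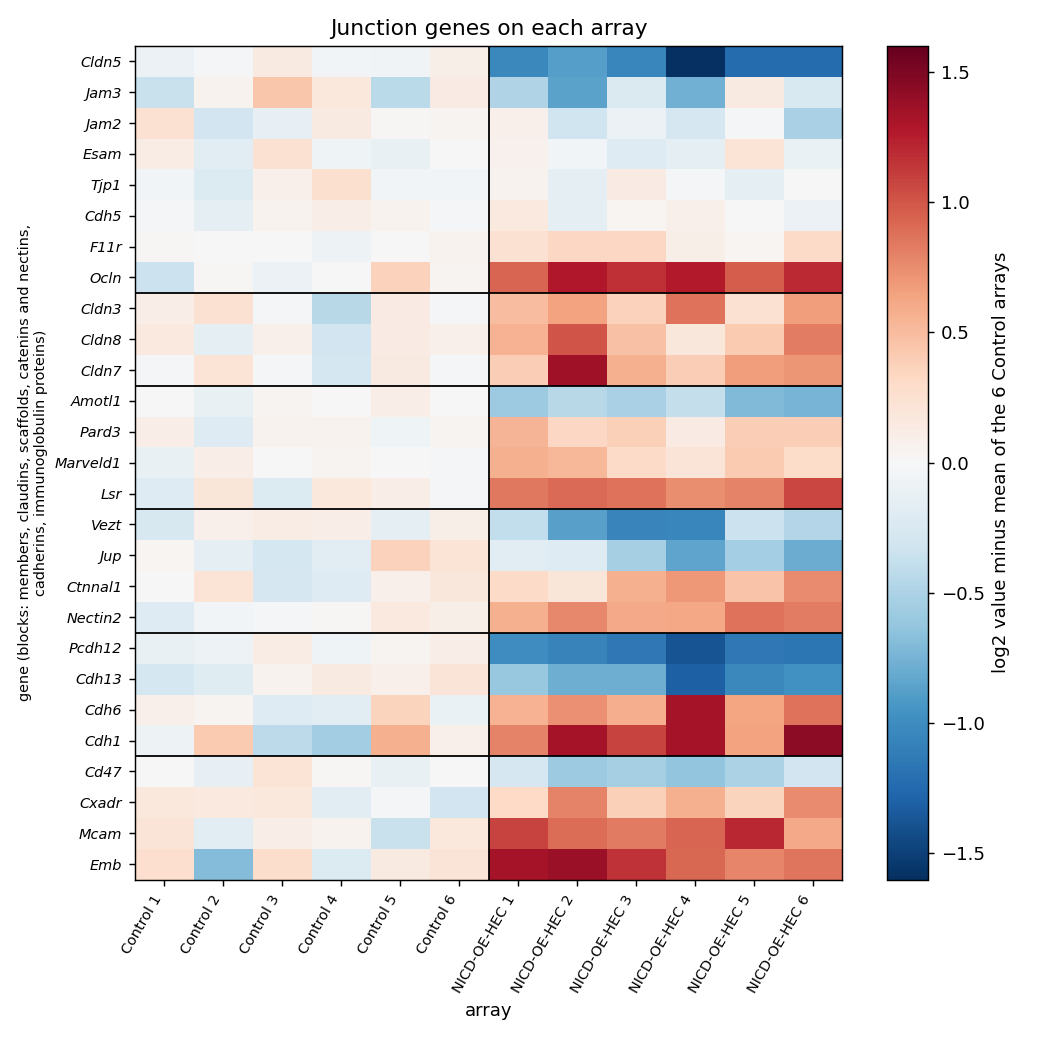
Log2 value minus the mean of the 6 Control arrays for the 8 junction genes (top block) and the named genes of 5 further junction lists, with a row for each gene and a column for each array; red is higher and blue lower. Cldn5, Pcdh12 and Cdh13 are blue and Ocln, Cdh1, Lsr and Mcam red on all 6 NICD-OE-HEC arrays, while the rows of Cdh5, Tjp1 and Esam stay pale.

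Among the immunoglobulin-type members, F11r (JAM-A) came closest to a call. Control arrays 1 to 6 gave 9.02, 9.0, 9.01, 8.91, 9.0 and 9.06, and NICD-OE-HEC arrays 1 to 6 gave 9.24, 9.33, 9.33, 9.09, 9.03 and 9.30. Of the 6 NICD-OE-HEC arrays 5 lay above all Control arrays, and NICD-OE-HEC 5 did not. The log2 difference was 0.22 (SE 0.08, 95% interval 0.05 to 0.39), and the adjusted p of 0.105 missed the threshold. The exact permutation p of this gene alone was 0.00433, not adjusted for the 8 genes tested so. With the general endothelial marker mean of each array subtracted F11r was called (0.37, adjusted p = 0.0128). That scaling raised the median of all probe sets by 0.15. With Cdh5 subtracted F11r was not called (0.22, adjusted p = 0.331). F11r is also carried by platelets, whose Pf4 (0.56) and Ppbp (1.01) rose, while 5 other platelet markers, among them Itga2b (0.02) and Gp9 (0.31), were not called. The remaining listed platelet marker, Clec1b, is also a sinusoidal marker and fell. The mean log2 value of the platelet list, Clec1b included, ran from 4.65 to 4.87 in Control and from 4.80 to 5.06 in NICD-OE-HEC. The part of platelets in the F11r value was not tested.

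Jam2 (JAM-B), the vascular partner that binds JAM-C, was not called. Its values ran from 10.49 to 11.04 with a median of 10.83 on Control arrays and from 10.28 to 10.88 with a median of 10.62 on NICD-OE-HEC arrays. Of the NICD-OE-HEC arrays 2 lay below all Control arrays and the rest within their range. The log2 difference was -0.19 (SE 0.12, 95% interval -0.45 to 0.06, adjusted p = 0.399).

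Jam3 (JAM-C), which binds JAM-B and the leukocyte integrin Mac-1, gave the widest spread of the 8 genes within Control arrays. Control arrays ran from 4.45 to 5.33 with a median of 4.98, and NICD-OE-HEC arrays from 4.03 to 5.03 with a median of 4.52. Of the NICD-OE-HEC arrays 3 lay below all Control arrays. The log2 difference was -0.41 (SE 0.18), its 95% interval of -0.79 to -0.02 did not hold 0, and the adjusted p was 0.201. The exact permutation p was 0.0866.

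Esam, an adhesion molecule of endothelium and platelets that guides leukocyte passage, was not called either. Control arrays ran from 9.41 to 9.83 with a median of 9.55, and NICD-OE-HEC arrays from 9.38 to 9.80 with a median of 9.51. The ranges were nearly the same. The log2 difference was -0.04 (SE 0.10, 95% interval -0.25 to 0.17, adjusted p = 0.893).

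Of 13 further immunoglobulin-type and transmigration genes 4 rose and 2 fell, against 4.89% higher and 5.59% lower over all probe sets. Emb (embigin), a membrane partner of lactate transporters, rose by 1.07 (adjusted p = 4.85e-04), Mcam by 0.92, and Cxadr, a junction protein of epithelia and viral receptor, by 0.53. Pecam1, a homophilic adhesion molecule of endothelial contacts, rose by 0.33 (adjusted p = 0.0258), a call lost without Control 1, 3 or 6 or NICD-OE-HEC 3, 4 or 5 (adjusted p up to 0.0599). Cd47, the signal that restrains phagocytes, fell by 0.47 (adjusted p = 0.00354), and Cd99l2, a relative of CD99, by 0.40 (adjusted p = 0.0247). The Cd99l2 call was lost without Control 4 or 6 or NICD-OE-HEC 5, the adjusted p reaching 0.0603. Pecam1 and Cd99l2 are named after their values were seen. The leukocyte integrins that bind JAM proteins gave 2 rises and 0 falls among 5, Itgam by 1.22 and Itgb2 by 0.75. These 2 chains form Mac-1 on myeloid cells, and neutrophil markers rose on the same arrays, 6 of 10, with list means from 3.22 to 4.39 in Control and from 4.79 to 6.74 in NICD-OE-HEC. Their part in the integrin values was not tested.

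**Figure D4:**
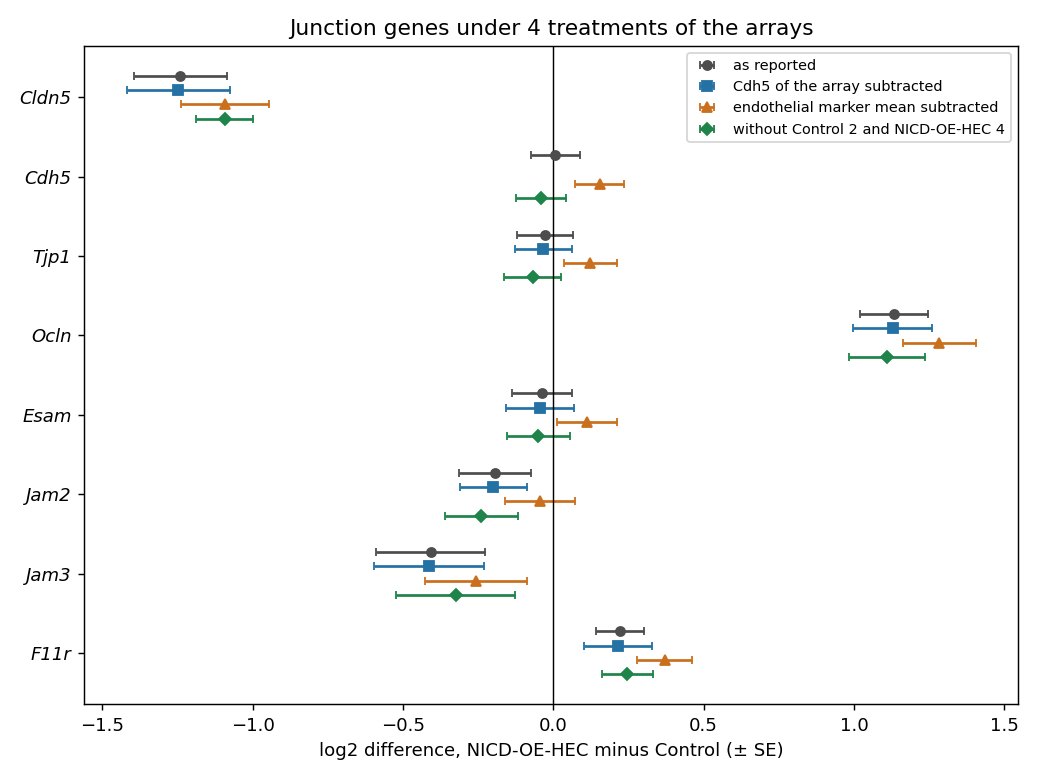
Log2 difference, NICD-OE-HEC minus Control, with its SE for each of the 8 junction genes as reported, after subtracting from each array its Cdh5 value or its general endothelial marker mean, and without Control 2 and NICD-OE-HEC 4. Cldn5 stays between -1.25 and -1.09 and Ocln between 1.11 and 1.28. Cdh5 has no value where it is the reference, and it is itself part of the marker mean.

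Genes that signal to endothelial junctions moved in both directions, 9 of 33 higher and 5 lower. The shares over all probe sets were 4.89% higher and 5.59% lower. Angpt2, the ligand that antagonizes Tie2 and loosens junctions, rose from 5.88 ± 0.24 to 8.72 ± 0.41, 7.14-fold (adjusted p = 4.19e-08). Its receptor Tek (Tie2) fell by 0.59 and Kdr, the VEGF receptor, by 0.60, both named after their values were seen. S1pr1 rose by 0.79 and Angpt1, which was among the dimmest 50% of probe sets, by 0.67, likewise named after their values were seen. Plvap, which forms the diaphragms of fenestrae and caveolae, rose by 0.98 (adjusted p = 2.01e-05), and Angptl4, a secreted lipase inhibitor, by 1.85 from a Control mean of 3.62, below the array median. Tiam1, an activator of Rac, fell by 1.01 to a mean of 3.49, below the array median as well. The small GTPases Rap1a, Rap1b, Rac1, Cdc42 and Rhoa, which act downstream of many of these signals, were not called, Rhoa being the farthest from 0 at -0.08.

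Of 19 transcription factors known to act on Cldn5 or Cdh5, 0 were called higher and 2 lower, against 4.89% higher and 5.59% lower over all probe sets. The median log2 difference of the list was 0.03. Klf2, a flow-induced factor, fell from 8.57 ± 0.15 to 7.92 ± 0.37 (log2 difference -0.66, adjusted p = 0.00888). Ets1, an ETS family factor, fell by 0.31 (adjusted p = 0.0182), with Control 2 above the other Control arrays at 9.67, and the call was lost without Control 2 and NICD-OE-HEC 4 together, with the replicate block, and with Cdh5 or the general endothelial marker mean subtracted. It was kept with any single array left out (-0.35 to -0.29). Of the factors tied to Cldn5, Erg (0.03), Sox18 (0.13) and Foxo1 (0.35, adjusted p = 0.0724) were not called.

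The genes whose pattern over the 12 arrays was most like that of a called member were found by the gap between log2 values, each gene set to its own Control mean, among 11511 named genes above the array median. For Cldn5 they were the phosphatase Ctdspl (root mean square gap 0.16), the organic ion transporter Slc22a15 (0.16) and the neonatal Fc receptor Fcgrt (0.18), which fell by 1.34, 1.28 and 1.28. For Ocln they were Rgs5, a regulator of G protein signalling (0.15), the cell-surface proteoglycan Sdc1 (0.16) and the LIM-domain protein Lmo7 (0.18), which rose by 1.09, 1.00 and 1.22. The gap takes in the group difference, so the directions and approximate sizes of these changes were set by the choice. Rgs5 stands in the list of mural cell markers, of which 7 of 9 rose.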

How the data were processed

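The authors deposited RMA expression on the log2 scale, with 1 value for each probe set on each array, per the submitters' processing notes. Software, chip definition and build: not given in the sources used here. Arrays share their quantiles, which hides any shift common to most genes, and no detection calls were used. The 6 arrays per group limit the precision.

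All 25428 probe sets were fitted with limma 3.58.1 in R 4.3.3 (2 groups, no covariates, two-sided, Benjamini-Hochberg over all probe sets). Standard errors are limma's moderated ones, and exact permutation tests were two-sided. Symbols came from the platform annotation of 2018. Data for NICD-OE-HEC against Control were also simulated on 25428 probe sets. Recovered were 47.6% of 63 changes of log2 0.5, 89.9% of 69 at log2 1 and 100% of 68 at log2 2. Far fewer probe sets changed there than the 10.5% called in the data, so recovery in the data may differ.

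The members and lists were chosen with earlier results of these data known. The rule named the members, up to 4 called genes per list, 6 check genes and 3 like genes per called member. Other names were chosen after their values were seen. Marker lists were read by counts and mean log2 values. Alternatives covered scaling, filters, the variance model, a replicate block and arrays left out.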

Additional observations from a re-analysis of the deposited data

Results flagged for a closer look

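Each of the 46 named genes was looked at in both groups of 6 arrays for an array far from the rest, 92 groups in all. Of these 3 stood out. Chance alone flags about 1 in 20, so this is no more than chance would give. Cldn5 on NICD-OE-HEC 4 was 7.03, against 7.82 to 8.17 on the other 5 arrays. Cldn7 on NICD-OE-HEC 2 was 4.86, against 3.89 to 4.21. Ets1 on Control 2 was 9.67, against 9.47 to 9.55. NICD-OE-HEC 4 and Control 2 are the arrays that stood apart on the second principal component.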

How the results depend on the processing

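Cldn5 and Ocln kept their direction and their call under all 22 alternatives run, with differences from -1.31 to -1.09 and from 1.07 to 1.28. Members called stayed at 1 higher and 1 lower under every alternative except the general endothelial marker mean subtracted, where 2 were higher because F11r was called (0.37). That scaling raised the median of all probe sets by 0.15, so differences under it are to be read against that shift, and it moved the calls to 2665 higher and 800 lower from 1244 and 1422. The general endothelial list includes Cdh5, Kdr, Tek, Pecam1, Erg and Robo4, so its mean is not a separate reference for these genes. An absolute log2 difference of at least 1 left 330 higher and 201 lower.

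Near 0, signs turned without a call. Cdh5 was -0.040 without Control 2 and NICD-OE-HEC 4 and -0.028 with array weights, and -0.024 to 0.035 over single arrays left out. Under the general endothelial mean Tjp1 was 0.12 and Esam 0.11, and over single arrays left out they ran from -0.071 to 0.025 and from -0.088 to 0.011. Over single arrays left out, calls ran from 1017 to 1323 higher and from 1090 to 1647 lower, and the differences of Jam2 from -0.26 to -0.13, Jam3 from -0.52 to -0.32 and F11r from 0.20 to 0.26, none called.

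Under the general endothelial mean the numbers called higher became 5 for claudins, 7 for scaffolds, 9 for catenins and nectins, 7 for immunoglobulin-type genes and 3 for transcription factors. Those lower became 1 for immunoglobulin-type genes, 3 for barrier signalling and 1 for transcription factors. With Cdh5 subtracted, immunoglobulin-type genes gave 1 lower and transcription factors 1 lower.

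The labels give both groups replicate numbers 1 to 6. Deviations of same-numbered arrays from their group means correlated at -0.10 to 0.22, so the numbers were not taken as pairs. With the replicate block 1294 probe sets were higher and 1213 lower, Cldn5 and Ocln kept their calls, and transcription factors gave 1 higher and 1 lower. The cause of these shifts was not tested.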
